A study of Mus musculus with 10 samples.

Results

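In embryonic mouse heart ATAC-seq, 5465 distal regions were called as accessible in all 3 libraries of E11.5 epicardium and all 3 libraries of epicardium-derived cells (EPDCs), and in none of the 3 libraries of E17.5 epicardium. ATAC-seq marks open chromatin by the insertion of sequencing adapters, and a peak is a place where the fragments pile up above the local background. The peak intervals of the 9 libraries on chromosomes 1 to 19 were pooled and merged where they overlapped, which gave 154886 union regions. A library called a region when an interval of its list overlapped it by at least 1 bp. Of the union regions, 126783 were distal, which means more than 1 kb from every annotated transcription start site (TSS), and the shared E11.5 and EPDC regions were 4.31% of these. They were 14.7% of the 37078 distal regions that all 6 E11.5 and EPDC libraries called. The lists differed in length, and with only the 73606 strongest intervals of each the count was 3192. Another 26671 of those 37078 regions were called in all 3 E17.5 libraries, 2145 in 1 and 2797 in 2. The regions were selected on the calls in all 9 libraries, so the calls themselves are a description and were not tested.

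The embryos, recorded as C57BL/6J, carried Rosa26tdTomato and Wt1CreERT2/+, and tamoxifen at 100 mg/kg was given by gavage to the pregnant females at E9.5. Because *Wt1* drives the inducible Cre, tdTomato marks only cells that expressed *Wt1* around the time of tamoxifen, and their descendants. Epicardial cells were sorted as CD31-tdTomato+PDPN+ at E11.5 (3 libraries, 6 pooled littermate hearts each) and E17.5 (3 libraries, 4 hearts each), and EPDCs as CD31-tdTomato+PDPN- at E12.5 (1 library) and E13.5 (2 libraries). For E13.5 the sample records give 4 to 13 hearts and the methods 9 to 13, and neither gives a number for E12.5. The records give 40000 to 50000 sorted cells for a sample. The library of E13.5 sample 2 joined 2 technical replicates in a single list. E13.5 epicardium and E17.5 EPDCs were not analysed here, so stage and cell population cannot be told apart in any comparison of EPDCs with epicardium. Each list is from a pool of cells, and fewer cells with an open region cannot be told apart from a less open region in every cell.

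The epicardium is the mesothelial sheet on the surface of the heart. During mid-gestation some of its cells lose their epithelial contacts, undergo epithelial-to-mesenchymal transition (EMT) and enter the heart wall as EPDCs, which give rise to fibroblasts and to the mural cells of the coronary vessels. Distal open regions include enhancers, short stretches of DNA where transcription factors bind and act on genes that may lie far away, and the set of open enhancers changes with stage and cell type far more than the set of open promoters. Factors that read such elements in the developing heart include GATA and T-box factors, TEAD factors of the Hippo pathway, MEIS and SOX factors and basic helix-loop-helix factors at E-boxes, while AP-1 is a broadly used factor that responds to signals.

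The lists held 73606 to 106836 intervals on these chromosomes and covered 42.8 to 75.3 Mb. Background coverage was 3.24 to 4.10 fragments per position at E11.5, 4.19 at E12.5, 4.26 and 10.9 in the pair of E13.5 samples, and 2.07 to 3.61 at E17.5. E13.5 sample 2 was thus the deepest library and E17.5 replicate 1 the shallowest. The EPDC lists alone held intervals on mitochondrial and unplaced sequences, a difference whose origin and part in the results were not tested. Promoter calls were used to check the sorted cells. All 12 epicardial marker promoters were called in every epicardial library and 10 to 12 of them in the EPDC libraries, and 9 or 10 of 10 mesenchymal and all 6 mural marker promoters were called in every library. Of 10 endothelial markers, the promoters of *Pecam1*, *Cdh5*, *Tie1* and *Emcn* were called in no library and the other 6 in all. Of 10 cardiomyocyte promoters, 9 were called in each E11.5 library, 5, 4 and 6 in the EPDC libraries and 6, 8 and 7 in the E17.5 libraries, with *Myh6* called in none. Of 9 blood promoters, 2 or 3 were called in each library.

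The 200 bp around the summit of 10 of the shared regions, chosen to show the strongest regions, a region near an EMT factor and an epicardial factor, and the extremes of the difference between E11.5 and EPDC, are printed from mm10 (GRCm38), plus strand. Capitals mark, on either strand, the letters of the E-box CAGCTG, a MEIS site (TGACAG), a SOX site in its 1st form (ACAATG) and in its 2nd form (ACAAAG), a site of GATA factors (AGATAA) and a TEAD site (GGAATG). The first 3 are among the regions of highest rank in the 6 libraries, at *Bmp5*, *Fscb* and *Pcdh20*. The fourth lies near *Zeb2*, which encodes an EMT repressor, and the fifth near *Tbx20*, which encodes a cardiac T-box factor. The regions at *Spock1* and *Osmr* were higher in E11.5 than in EPDC, and those at *Atp11b*, *Ccnd2* and *Nrg1* higher in EPDC, as described further on.
Bmp5, chr9:75833384-75833583: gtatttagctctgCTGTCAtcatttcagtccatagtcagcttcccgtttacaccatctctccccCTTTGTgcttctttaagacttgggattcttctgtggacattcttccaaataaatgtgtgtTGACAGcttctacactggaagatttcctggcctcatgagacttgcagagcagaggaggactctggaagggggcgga
Fscb, chr12:64496185-64496384: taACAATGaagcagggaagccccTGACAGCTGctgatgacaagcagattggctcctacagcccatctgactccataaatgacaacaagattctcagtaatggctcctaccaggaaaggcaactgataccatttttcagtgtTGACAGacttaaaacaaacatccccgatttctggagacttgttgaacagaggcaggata
Pcdh20, chr14:89639427-89639626: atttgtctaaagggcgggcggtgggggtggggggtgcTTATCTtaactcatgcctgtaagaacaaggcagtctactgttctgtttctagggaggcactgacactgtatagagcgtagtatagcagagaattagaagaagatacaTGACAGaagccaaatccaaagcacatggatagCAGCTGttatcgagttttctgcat
Zeb2, chr2:45171983-45172182: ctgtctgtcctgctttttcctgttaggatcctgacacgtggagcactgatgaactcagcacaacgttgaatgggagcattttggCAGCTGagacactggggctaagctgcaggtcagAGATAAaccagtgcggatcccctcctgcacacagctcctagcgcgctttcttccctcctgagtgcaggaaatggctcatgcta
Tbx20, chr9:24860864-24861063: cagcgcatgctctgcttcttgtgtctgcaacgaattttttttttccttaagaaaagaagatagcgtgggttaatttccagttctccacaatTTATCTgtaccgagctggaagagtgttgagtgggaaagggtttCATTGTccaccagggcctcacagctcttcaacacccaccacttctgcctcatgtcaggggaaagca
Spock1, chr13:57666637-57666836: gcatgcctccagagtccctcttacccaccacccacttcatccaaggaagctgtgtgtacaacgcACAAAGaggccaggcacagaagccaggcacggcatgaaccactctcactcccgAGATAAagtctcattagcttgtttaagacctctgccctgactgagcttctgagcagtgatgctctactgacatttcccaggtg
Osmr, chr15:6974509-6974708: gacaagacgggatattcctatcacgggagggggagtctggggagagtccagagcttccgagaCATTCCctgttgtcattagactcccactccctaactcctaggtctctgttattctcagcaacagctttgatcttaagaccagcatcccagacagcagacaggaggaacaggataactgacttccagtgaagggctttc
Atp11b, chr3:35367346-35367545: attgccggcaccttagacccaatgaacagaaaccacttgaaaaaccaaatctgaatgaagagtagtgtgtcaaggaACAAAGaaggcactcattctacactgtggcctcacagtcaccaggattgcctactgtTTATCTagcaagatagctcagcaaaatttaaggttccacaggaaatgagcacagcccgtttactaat
Ccnd2, chr6:127177584-127177783: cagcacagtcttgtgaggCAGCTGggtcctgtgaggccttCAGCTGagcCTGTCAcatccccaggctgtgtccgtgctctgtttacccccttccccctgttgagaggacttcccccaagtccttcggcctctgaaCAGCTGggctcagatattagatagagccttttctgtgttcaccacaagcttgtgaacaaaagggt
Nrg1, chr8:31666131-31666330: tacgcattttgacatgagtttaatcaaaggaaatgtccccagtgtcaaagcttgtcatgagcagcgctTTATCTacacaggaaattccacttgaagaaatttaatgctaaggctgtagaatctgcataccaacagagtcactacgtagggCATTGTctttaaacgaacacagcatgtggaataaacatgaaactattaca

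The window at *Fscb* holds TGACAG run together with CAGCTG, so that a MEIS and an E-box match share letters, and a further MEIS and a SOX match. At *Ccnd2* the window holds 3 matches to CAGCTG and 1 to TGACAG. The windows at *Spock1* and *Atp11b*, which lay at opposite ends of the comparison of E11.5 with EPDC, each hold a single ACAAAG and a single GATA match.

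The shared regions were weaker than those called throughout. Each peak was placed among all peaks of its library by its −log10 p, as a rank percentile. The median percentile of the shared regions was 36.6, 42.0 and 40.9 in the E11.5 libraries, 37.3 in the E12.5 sample and 36.8 and 46.1 in the E13.5 samples. Averaged over libraries this was 39.8 at E11.5 and 40.05 in EPDC, and 16.8 and 28.4 with equal numbers of intervals. In the regions called in all 9 libraries it was 68.6 to 71.9 at E11.5 and 59.6 to 68.8 in EPDCs. The shared regions still spanned nearly the whole range of strength, with a mean percentile over the 6 libraries of 4.13 at the lowest, 39.4 at the median and 88.0 at the highest. When the 37078 regions called by the 6 libraries were divided by mean percentile into 3 classes of equal size, the shared regions made up 31.1% of the weakest class, 11% of the middle class and 2.09% of the strongest.

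**Figure D1:**
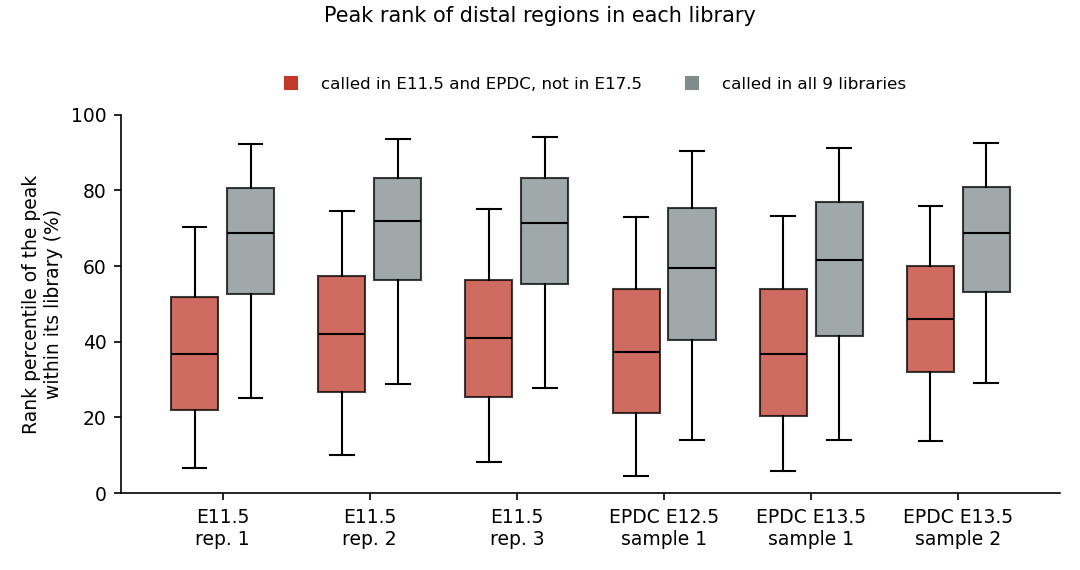
Rank percentile of peaks (vertical axis, %) in each of the 3 E11.5 and 3 EPDC libraries, for the 5465 shared E11.5 and EPDC regions (red) and the 26671 distal regions called in all 9 libraries (grey). Boxes span the quartiles with the median as a line, and whiskers run from the 5th to the 95th percentile of the regions; the red medians (36.6 to 46.1) lie below the grey ones (59.6 to 71.9) in every library.

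Libraries of a group ranked the shared regions alike, and libraries of different groups much less so. Across the 5465 regions the Spearman correlation of percentiles was 0.80 to 0.83 among the 3 pairs of E11.5 libraries and 0.71 to 0.89 among the 3 pairs of EPDC libraries. Between E11.5 and EPDC libraries it was 0.19 to 0.43 over 9 pairs. These values are across regions, which share the library and its depth. They were not computed over all regions called by the 6 libraries, so they are not shown to be particular to the shared regions. Within a region, the SD of the percentile had a median of 7.05 points over the E11.5 libraries and 8.63 over the EPDC libraries. The range over all 6 libraries, an unlike measure that is wider than an SD in any case, had a median of 32.6 points and reached 83.9.

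A region without a call at E17.5 had a signal too low for the peak caller and was not necessarily closed. Over the genome background, the lowest −log10 p of the 3 E17.5 lists corresponds to a floor of 9, 12 and 12 fragments at a summit. Where the local background is higher, a call needs more fragments than this floor. The shared regions had a median of 31, 35 and 31 fragments at E11.5, 31 at E12.5 and 35 and 85 in the pair of E13.5 samples, of which the second was the deeper. If each region had kept its E11.5 signal, scaled by the ratio seen at the regions called in all 9 libraries, the median would have been 18.4, 33.6 and 28.4 fragments in the E17.5 libraries. That computed value reached the floor of all 3 E17.5 libraries in 5341 regions (97.7%), and at least 18, 24 and 24 fragments in 2809 (51.4%). These counts take the genome background for every region, so they can overstate how many would have been called. Regions close to the floor, or with a high local background, could have gone uncalled at this depth with no change in signal. Just outside the rule lay 554 regions with the same calls but at most 1 kb from a TSS, and 3276 distal regions called in 5 of the 6 E11.5 and EPDC libraries and in no E17.5 library. The nearest excluded region was 999 bp from a TSS and the nearest included ones 1002 bp.

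The signal of the shared regions differed between E11.5 epicardium and EPDCs in both directions. This comparison asks whether regions open in both populations were equally strong in them. The difference itself did not enter the choice of the regions, but the rule left out regions called in E17.5 epicardium. That population was sorted by the same markers as E11.5. Distal regions called by all E11.5 and E17.5 libraries and no EPDC library numbered 3040. Those called by all E17.5 and EPDC libraries and no E11.5 library numbered 768. How far the rule set the shares in each direction was not tested. The −log10 p of the strongest peak was taken on the log2 scale, quantile-normalized over the 37078 regions called by the 6 libraries, and compared with limma. Of the shared regions, 769 (14.1%) were higher in E11.5 and 1628 (29.8%) higher in EPDC at a Benjamini-Hochberg adjusted p under 0.05. Over all 37078 regions tested the shares were 25% and 23.9%, so the share higher in E11.5 was below that background and the share higher in EPDC above it. The remaining 3068 shared regions did not pass the threshold, which does not show that they were equal. The median difference, EPDC minus E11.5, was 0.25 in the shared regions and −0.05 in all regions tested. Regions higher in E11.5 had a median difference of −1.31, with values from −3.90 to −0.58, and regions higher in EPDC a median of 1.46, with values from 0.54 to 4.01.

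The scaling decided which direction was more frequent. The alternative to quantile normalization was a depth-normalized score, the −log10 p divided by the sum over the peaks of its library. The paper used such a score on fixed-width peaks to merge peak sets, not to test differences. With the depth-normalized score, 1410 shared regions (25.8%) were higher in E11.5 and 1043 (19.1%) higher in EPDC, against a background of 35.4% and 17.8%. On that scale the median difference over all regions was −0.34 and that of the shared regions −0.20, so the shared regions lay on the EPDC side of all regions on either scale.

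**Figure D2:**
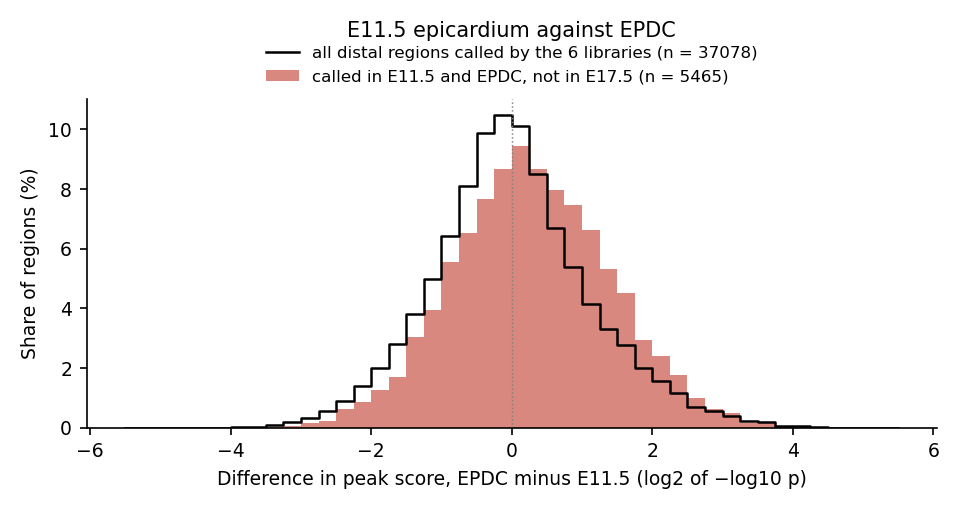
Distribution of the difference in peak score between EPDC and E11.5 epicardium (horizontal axis, log2 of quantile-normalized −log10 p, EPDC minus E11.5) as a share of regions (vertical axis, %). Red bars are the 5465 shared regions and the black line all 37078 distal regions called by the 6 libraries; the red distribution has its median at 0.25 and the black one at −0.05.

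The E12.5 sample lay between the stages in many of the regions higher in E11.5. Ranked among the 37078 regions, these 769 had a median percentile of 45.8, 48.1 and 45.6 in the E11.5 libraries, 19.1 in E12.5 sample 1 and 10.6 and 9.68 in the E13.5 samples. The E12.5 sample was above both E13.5 samples in 484 of them (62.9%), against 45.5% of all shared regions and 39.6% of all 37078. In the 1628 regions higher in EPDC the medians were 11.6, 12.6 and 12.47 at E11.5, 49.1 at E12.5 and 53.6 and 49.9 at E13.5, and the E12.5 sample was below both E13.5 samples in 720 (44.2%), against 33.96% of all shared regions and 40.8% of all 37078. The EPDC libraries were used to choose these regions and E12.5 has a single library, so these orders are a description. Without E12.5 sample 1, 1058 shared regions (19.4%) were higher in E11.5 and 1768 (32.4%) higher in EPDC, against 28.3% and 27.1% of all regions in the same fit.

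The strongest shared region was an intronic region of *Bmp5* (ENSMUSG00000032179), which encodes a bone morphogenetic protein, on chromosome 9 from 75833280 to 75833824, 5.26 kb downstream of the nearest start of the gene. Its percentile was 90.8, 89.5 and 88.2 at E11.5, 90.2 at E12.5 and 83.7 and 85.9 at E13.5, with 111 to 307 fragments at the summit. The ranges of the groups overlapped, and the difference was −0.03 ± 0.19 (SE; limma, adjusted p = 0.92). At the E11.5 signal the E17.5 libraries would have held 72.3, 132 and 112 fragments, far above the fewest that a call needs over the genome background.

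Next in rank was an intergenic region on chromosome 18, 16329124 to 16330426, 339.6 kb downstream of the nearest start of *Cdh2* (ENSMUSG00000024304). *Cdh2* encodes N-cadherin, the adhesion molecule gained by many cells in EMT. The percentile of the region was 89.4, 94.5 and 91.9 at E11.5, 90.1 at E12.5 and 82.1 and 77.6 at E13.5. The E12.5 sample lay within the E11.5 range and the E13.5 samples below it, and the difference of −0.58 ± 0.25 (SE) did not pass the threshold (limma, adjusted p = 0.057). A region on the other side of *Cdh2*, intergenic and 390.3 kb upstream (17199558 to 17200107), was at 76.7, 86.5 and 86.3 at E11.5 and at 76.6, 80.0 and 86.0 in EPDCs in the same order of samples. A further region in an intron of *Cdh2* (16779426 to 16781123) was higher in EPDC. It ranked at 61.6, 64.8 and 51.6 at E11.5 against 87.3, 80.8 and 82.0 in EPDCs, without overlap (1.82 ± 0.26, SE; limma, adjusted p = 2.2e-05).

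Of the 12 shared regions of highest mean percentile, 9 did not pass the threshold between E11.5 and EPDC. Besides those named, these lay nearest to *Sp5*, a zinc-finger factor gene and Wnt target, where an intergenic region on chromosome 2 (70442804 to 70443700), 31.2 kb upstream, ranked from 79.0 to 86.2 in the 6 libraries, and to *Adcyap1*, *Fscb*, *Pcdh20*, *Slc22a22* and *Susd1*. Higher in E11.5 was an intronic region of *N4bp1* (−0.58 ± 0.22, SE; limma, adjusted p = 0.035). Higher in EPDC were a region in an exon of *Slc12a8* (0.54 ± 0.21, SE; limma, adjusted p = 0.037) and a region in an exon of the pseudogene *Mgam2-ps*, 33.5 kb from *Moxd2* on chromosome 6 (40853179 to 40854033), which ranked at 78.7, 64.8 and 77.7 at E11.5 and at 93.6, 94.1 and 91.0 in EPDCs (1.85 ± 0.24, SE; limma, adjusted p = 8.3e-06).

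The largest difference towards E11.5 was in an intron of *Spock1* (ENSMUSG00000056222), which encodes a matrix proteoglycan, on chromosome 13 from 57666355 to 57667133. It ranked at 83.1, 83.6 and 86.3 at E11.5, at 25.6 in E12.5 sample 1 and at 2.40 and 2.89 in the E13.5 samples, where 14 and 27 fragments were piled up at the summit. The groups did not overlap (−3.90 ± 0.41, SE; limma, adjusted p = 9.3e-07). The next were an intergenic region 14.1 kb upstream of *Dennd1a* (−3.48), an intronic region of *Cntnap2* (−3.28), an intronic region of *Rab3ip* (−3.01) and an intergenic region 99.1 kb upstream of *Osmr*, the oncostatin M receptor gene (−3.00). In *Dennd1a*, *Cntnap2* and *Rab3ip* the E12.5 sample was also the highest of the EPDC samples, with percentiles of 13.98, 51.8 and 44.7, while at *Osmr* E13.5 sample 2 was, at 36.5.

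The largest difference towards EPDC was in an intergenic region on chromosome 3 (35366765 to 35367873), 386 kb upstream of *Atp11b* (ENSMUSG00000037400), a phospholipid flippase gene. It ranked at 19.4, 5.22 and 19.05 at E11.5 and at 88.9, 79.6 and 82.0 in EPDCs, without overlap (4.01 ± 0.35, SE; limma, adjusted p = 1.8e-07). It was followed by a region in an exon of *Itpk1* (3.83) and a region 25 kb upstream of *Ccnd2*, the gene of cyclin D2 (3.63). Next were a region 139 kb downstream of the nearest *Ermard* start (3.61) and an intergenic region 183 kb downstream of the nearest *Nrg1* start (3.59). *Nrg1* encodes the ErbB ligand neuregulin. At *Ccnd2* the percentile was 10.4, 4.41 and 25.7 at E11.5 and 73.0, 76.1 and 81.4 in EPDCs. At *Nrg1* it was 16.7, 24.6 and 24.4 at E11.5 and 79.7, 82.4 and 86.3 in EPDCs. All 5 regions were thus weak peaks at E11.5 and strong ones in EPDCs, although they were called in all 6 libraries. Their E11.5 signal, carried over, would have given 7.71 to 14.6 fragments in E17.5 replicate 1, close to the 9 that a call needs there over the genome background.

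**Figure D3:**
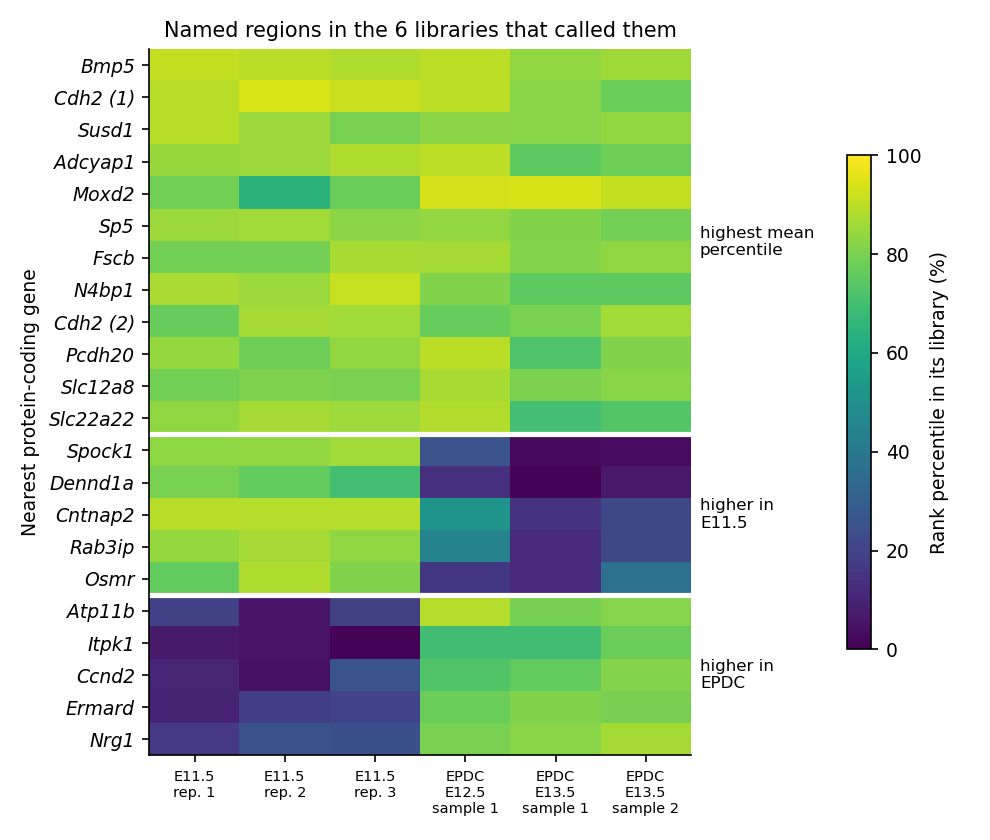
Rank percentile (colour, %) in each of the 6 libraries (columns) of 22 named shared regions (rows, by nearest protein-coding gene): the 12 of highest mean percentile, the 5 with the largest difference towards E11.5 and the 5 with the largest difference towards EPDC. The upper block is high in all columns, the middle block is high in the 3 E11.5 columns and has its lowest value in an E13.5 column, and the lower block is high only in the 3 EPDC columns.

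The shared regions lay farther from coding TSSs than the regions called throughout. They were 732 bp wide at the median (247 to 3028), and 46.7% were intronic, 45.7% intergenic and 7.52% exonic. The median distance to the nearest TSS of a protein-coding gene was 41.5 kb, and 29.8% were more than 100 kb away. For regions called in all 9 libraries the median distance was 22.4 kb with 15.8% beyond 100 kb, and for the 4000 distal regions called only in the 3 E17.5 libraries it was 18.6 kb with 14.5%. Regions called only in E11.5 (38.4 kb) and only in EPDC (36.3 kb) were closer to the shared regions in this respect. Among the regions called by all 6 E11.5 and EPDC libraries, the share without an E17.5 call was 11.3% at 1 to 5 kb from a coding TSS (548 of 4839), 11.1% at 5 to 20 kb, 14.5% at 20 to 100 kb, 22.7% at 100 to 500 kb and 33.2% beyond 500 kb (198 of 596). Of the shared regions, 1825 (33.4%) had another within 50 kb and 69.5% a region called in all 9 libraries within 50 kb. Matching shares were not computed for other groups, so these values are a description. A region called only in E17.5 was found within 50 kb of 16.8% of the shared regions, against 29.1% of the regions called in all 9 libraries.

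The nearest protein-coding genes of the shared regions numbered 3297, and most had a called promoter at E17.5. A called promoter in all 3 E17.5 libraries was found for 2726 (82.7%) of these genes, against 67.2% of all 20780 coding genes on these chromosomes. For 2697 genes (81.8%) a distal region called in all 9 libraries was also nearest to them, so regions with and without an E17.5 call lay nearest to the same gene. Regions called in all 9 libraries were nearest to 8809 of all 20780 coding genes. The share among genes nearest to any region called by the 6 libraries was not computed. For 28 genes the promoter had the same calls as the regions, present in all 6 E11.5 and EPDC libraries and absent from all E17.5 libraries. They were 1.02% of the 2746 such genes whose promoter the 6 libraries called, against 0.72% (100 of 13927) over all coding genes. These included *Fgf7*, a growth factor gene of mesenchyme (2 shared regions, both higher in EPDC but neither on the depth-normalized score), *Tnr*, which encodes the matrix protein tenascin-R (3 of the 4 distal regions called by the 6 libraries), *Ferd3l* (3 of 5), *Zpld1* (4 of 9), *Adcyap1* (2 of 3), *Irx4* (1 of 3) and *Actc1*, the cardiac actin gene (1 of 1). These 7 genes were singled out after their values were seen.

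By nearest gene, 1116 genes had 2 or more shared regions and 133 had 5 or more, and no test asks whether this exceeds the clustering of open regions in general. The genes named next were chosen for their count or share of shared regions. *Tenm4*, a teneurin gene, had the most, with 14 of its 42 distal regions called by the 6 libraries. *Zeb2* had 13 of 36, spread over 1476 kb, of which 9 were higher in EPDC and none in E11.5 (6 and 1 on the depth-normalized score). *Ptprd* had 11 of 30, *Adgrl2* 11 of 31 with 8 higher in EPDC and 1 in E11.5 (6 and 2 on that score), and *Auts2* 11 of 44. *Camk1g* had 10 of 22, *Cdkal1* 10 of 28 and *Sox5*, a chondrogenic SOX factor gene, 10 of 39, while *Cdh2* had 9 of 24 and *Adamtsl1* 9 of 31. The promoters of all 10 genes were called in all 9 libraries, and each gene was nearest to 1 or 2 regions called only in E17.5. *Fat3* (9 of 16) and *Rnd3* (9 of 30) had as many as *Cdh2* and *Adamtsl1*, and the tie was broken by the summed mean percentile. Among 816 genes with at least 10 distal regions called by the 6 libraries, the highest shares without an E17.5 call were at *Agbl1* and *Dab1* (7 of 10 each) and *Col23a1* (7 of 11). *Irx3*, a homeobox gene, and *Grin2a* followed with 6 of 10 each, then *Kcnt2* with 7 of 12 and *Fat3* with 9 of 16. Lower in this order, *Alcam*, an adhesion molecule gene, had 7 of 13 and *Robo2*, a guidance receptor gene, 8 of 15.

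A pair of the *Zeb2* regions are given in full. The one of highest rank lay 253.7 kb upstream on chromosome 2 (45371050 to 45371932), in an intron of the non-coding gene *Gm13479*, and ranked at 78.0, 80.9 and 66.4 at E11.5 and 79.8, 77.6 and 79.6 in EPDCs, which overlapped (0.55 ± 0.25, SE; limma, adjusted p = 0.078). The other, intergenic and 54.0 kb upstream (45171424 to 45172488), whose sequence is shown above, ranked at 50.5, 54.2 and 64.8 at E11.5 and 76.6, 76.5 and 79.6 in EPDCs, without overlap (1.56 ± 0.25, SE; limma, adjusted p = 6.9e-05).

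Regions were then grouped by the list to which their nearest gene belongs, and each count is set beside the 14.7% of all distal regions called by the 6 libraries that had no E17.5 call. Nearest genes are a guide to position and do not show which gene a region acts on. The shares were also counted over regions with any listed coding start within 100 kb, where the value over all coding genes was 12.7% (3837 of 30173), and this second share is given where it moved beyond its counting error or by over 1.5 times. Direction counts are to be read beside the 14.1% higher in E11.5 and 29.8% higher in EPDC of all shared regions. Where a list's pair of direction counts is printed, its pair on the depth-normalized score follows, since that scaling moved most of them towards E11.5. On that score the shares of all shared regions were 25.8% higher in E11.5 and 19.1% higher in EPDC. Among transcription factors, the regions at epicardial factors had a share of 10.7% (33 of 308), with 5 higher in E11.5 and 8 in EPDC (10 and 5 on the depth-normalized score). *Isl1* had 3 of 6, *Tcf21*, which marks fibroblast-forming epicardium, 3 of 12 and *Sox9* 7 of 28. A region 86.1 kb upstream of *Tbx20* on chromosome 9 (24860430 to 24861578) ranked at 69.5, 71.7 and 67.6 at E11.5 and at 85.5, 83.9 and 85.4 in EPDCs (1.38 ± 0.20, SE; limma, adjusted p = 2.9e-05). A region 516 kb upstream of *Nr2f1*, an orphan nuclear receptor gene, on chromosome 13 (78715364 to 78715834) ranked at 83.0, 87.7 and 84.6 at E11.5 and at 65.3, 50.5 and 48.5 in EPDCs (−1.63 ± 0.30, SE; limma, adjusted p = 0.00022). Both regions kept the groups apart, in opposite directions.

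At EMT factors the share was 18.3% (32 regions) by nearest gene but 11.6% by starts within 100 kb, with 2 regions higher in E11.5 and 12 in EPDC (5 and 7 on the depth-normalized score). *Zeb2* holds 9 of the 12 (6 of the 7). *Zeb1* had 2 of 12 regions, and neither passed the threshold (1 was higher in E11.5 on the depth-normalized score). At SOX, MEIS, Nr2f and related genes the share was 17.3% (52 of 300) by nearest gene but 11.2% by starts within 100 kb, with 10 higher in E11.5 and 20 in EPDC (14 and 12 on the depth-normalized score), and *Sox11* had 7 of 22 and *Sox6*, a SOX gene of the same group as *Sox5*, 4 of 33. Genes of nuclear factor I, C/EBP and hormone receptors, many of which rise with tissue maturation, had a low share of 8.13% (10 of 123), all at *Nfia* and *Nfib*. None of 22 regions at Hox genes was shared.

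Among signals, the list of PDGF, VEGF and angiogenic or guidance genes had the highest share of the developmental lists, 23.1% (78 of 338) over 23 of 32 genes, with 11 higher in E11.5 and 26 in EPDC (17 and 21 on the depth-normalized score). Its ligands included *Slit2* (5 of 13), *Cxcl12* (5 of 14), *Vegfa* (3 of 9) and *Vegfc* (2 of 10), and its receptors *Robo2* (8 of 15), *Epha7* (7 of 14), *Plxna2* (7 of 20) and *Cxcr4*, the receptor of CXCL12 (4 of 9, all higher in EPDC). An intergenic region 155 kb upstream of *Vegfc*, a growth factor gene of lymphatic and coronary vessels, ranked at 74.3, 85.4 and 83.7 at E11.5 and at 72.8, 44.1 and 62.8 in EPDCs (−0.996 ± 0.32, SE; limma, adjusted p = 0.016). Regions at *Robo2* (102.5 kb upstream) and *Slit2* (202 kb upstream) ranked from 72.9 to 87.4 and from 64.1 to 77.8 in the 6 libraries, and their differences of −0.32 and 0.60 did not pass the threshold (limma, adjusted p = 0.22 and 0.065).

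The TGF-beta and BMP list had 14.3% (41 of 286) by nearest gene and 10.3% by starts within 100 kb, with 8 higher in E11.5 and 7 in EPDC, or 17 and 6 with the depth-normalized score. A region 85.2 kb from *Tgfb2*, a ligand gene known for driving EMT in cardiac cushions and epicardium, on chromosome 1 (186563901 to 186564777) ranked at 85.3, 84.6 and 87.8 at E11.5 and at 65.6, 43.4 and 19.3 in EPDCs, without overlap (−2.31 ± 0.48, SE; limma, adjusted p = 0.00064). *Tgfb2* had 5 of 27 such regions, *Inhba* 5 of 20 and *Ltbp1*, which encodes a latent TGF-beta binding protein, 5 of 11. The Wnt list had 30 of 211 (14.2%), with 4 higher in E11.5 and 9 in EPDC (6 and 6 on the depth-normalized score). A region 143 kb from *Wnt5a*, a ligand gene of non-canonical Wnt signalling, ranked at 87.1, 85.4 and 84.7 at E11.5 and at 74.0, 62.8 and 63.1 in EPDCs (−1.03 ± 0.26, SE; limma, adjusted p = 0.0031). An intronic region of *Lrp6*, a Wnt co-receptor gene, went the other way (1.51 ± 0.28, SE; limma, adjusted p = 0.00023).

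Hedgehog and Notch genes had 27 of 201 regions (13.4%), with 1 higher in E11.5 and 10 in EPDC (2 and 5 on the depth-normalized score). Those of *Ptch1*, the Hedgehog receptor gene, were 3 of 5 and all higher in EPDC (1 on the depth-normalized score), and those of *Jag1*, a Notch ligand gene, 7 of 22. FGF genes had 13 of 131 (9.92%), with none higher in E11.5 and 6 in EPDC (none and 3 on the depth-normalized score). Retinoic acid genes had 7 of 86 (8.14%), confined to *Rarb* (4 of 13), a receptor gene, and *Crabp1* (3 of 4, all higher in E11.5), a binding protein gene. Of the 4 regions of *Rarb*, 2 were higher in EPDC (1 on the depth-normalized score). One of these, intronic on chromosome 14 (16695260 to 16696275), ranked at 64.7, 55.4 and 46.6 at E11.5 and at 78.2, 80.5 and 84.6 in EPDCs (1.86 ± 0.27, SE; limma, adjusted p = 2.6e-05). The *Rarb* region of highest mean percentile (16713994 to 16714933) did not pass the threshold (−0.48 ± 0.30, SE; limma, adjusted p = 0.20). Nor did the region at 16604341 to 16605790 (0.73 ± 0.33, SE; limma, adjusted p = 0.076). Hippo genes had 17 of 113 (15.0%), of which 6 of 15 lay at *Fat4*, an atypical cadherin gene.

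Structural genes were counted next, and no test compares the lists. The mesothelial epithelium and junction list had 23 of 144 (16.0%; 9.47% by starts within 100 kb), with 2 higher in E11.5 and 10 in EPDC (4 and 8 on the depth-normalized score), and the 23 regions lay at 6 of 25 genes, chiefly *Cdh2*, *Alcam* (7 of 13, 5 of them higher in EPDC and 4 on the depth-normalized score) and *Itga4*, an integrin gene (3 of 5). The mesenchyme and fibroblast list had 10 of 160 (6.25%), with 1 region each at *Col3a1*, *Col5a1*, *Col6a3*, *Dcn* and *Sparc*. Collagen and matrix genes at large had 45 of 268 (16.8%), with 5 higher in E11.5 and 14 in EPDC (6 and 8 on the depth-normalized score), and *Col8a1* had 5 of 11. Mural genes had 6 of 60 (10%), with 1 higher in E11.5 and 2 in EPDC (2 and 2 on the depth-normalized score). An intronic region of *Myh11*, the smooth muscle myosin gene, ranked at 24.4, 24.6 and 26.8 at E11.5 and at 74.0, 80.9 and 82.5 in EPDCs (3.16 ± 0.28, SE; limma, adjusted p = 2.5e-07). A region 3.30 kb upstream of *Pdgfrb*, the PDGF receptor gene of mural cells, ranked at 36.04, 48.9 and 41.0 at E11.5 and at 86.1, 83.3 and 87.1 in EPDCs (2.86 ± 0.25, SE; limma, adjusted p = 1.8e-07). An exonic region of *Acta2*, the smooth muscle actin gene, ranked at 52.8, 61.9 and 48.7 at E11.5 and at 62.3, 35.2 and 37.5 in EPDCs, where the groups overlapped and the difference did not pass the threshold (−0.15 ± 0.40, SE; limma, adjusted p = 0.78).

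Cell cycle genes had 21 of 136 (15.4%) by nearest gene but 6.78% by starts within 100 kb, among them *Mycn* (6 of 20) and *Myc* (6 of 25), and a region in an intron of *Pvt1*, 127 kb from *Myc*, ranked at 40.6, 31.6 and 34.8 at E11.5 and at 82.0, 80.4 and 78.3 in EPDCs (2.73 ± 0.29, SE; limma, adjusted p = 1e-06). Fetal timing genes had 7 of 71 (9.86%), with *Hmga2*, an early-embryonic chromatin protein gene, at 5 of 16. Immune genes of mesothelium had 2 of 39 (5.13%). An exonic region of *C3*, the complement gene, was higher in E11.5 (−1.0 ± 0.30, SE; limma, adjusted p = 0.011).

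Genes of cell types that the sort was meant to remove were also near shared regions. The cardiomyocyte list had 11 of 33 (33.3%), with *Ryr2*, the calcium release channel gene, at 7 of 15, *Actn2* at 2 of 2, *Tnnt2* at 1 of 3 and *Actc1* at 1 of 1. An intronic region of *Ryr2* on chromosome 13 (12027770 to 12028652) ranked at 81.8, 73.3 and 76.5 at E11.5 and at 65.3, 64.4 and 65.5 in EPDCs, and its difference of −0.44 ± 0.26 (SE) did not pass the threshold (limma, adjusted p = 0.16). Of the 10 cardiomyocyte marker promoters, more were called at E11.5 (9 in each library) than in EPDCs (4 to 6) or at E17.5 (6 to 8), and the part of cardiomyocyte chromatin in these regions was not tested. Counted over all coding starts within 100 kb, the cardiomyocyte share was 10.6%, so the high share rests on nearest genes, chiefly *Ryr2*. Endothelial genes had 14 of 84 (16.7%), with 5 of 24 at *Cdh5*, whose promoter was called in no library, and blood genes 7 of 47 (14.9%) by nearest gene and 6 of 75 (8.0%) by starts within 100 kb. A pair of regions nearest to *Ptprc*, the leukocyte common antigen gene, were higher in E11.5 (−1.13 and −1.31; limma, adjusted p = 0.0057 and 0.0029).

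**Figure D4:**
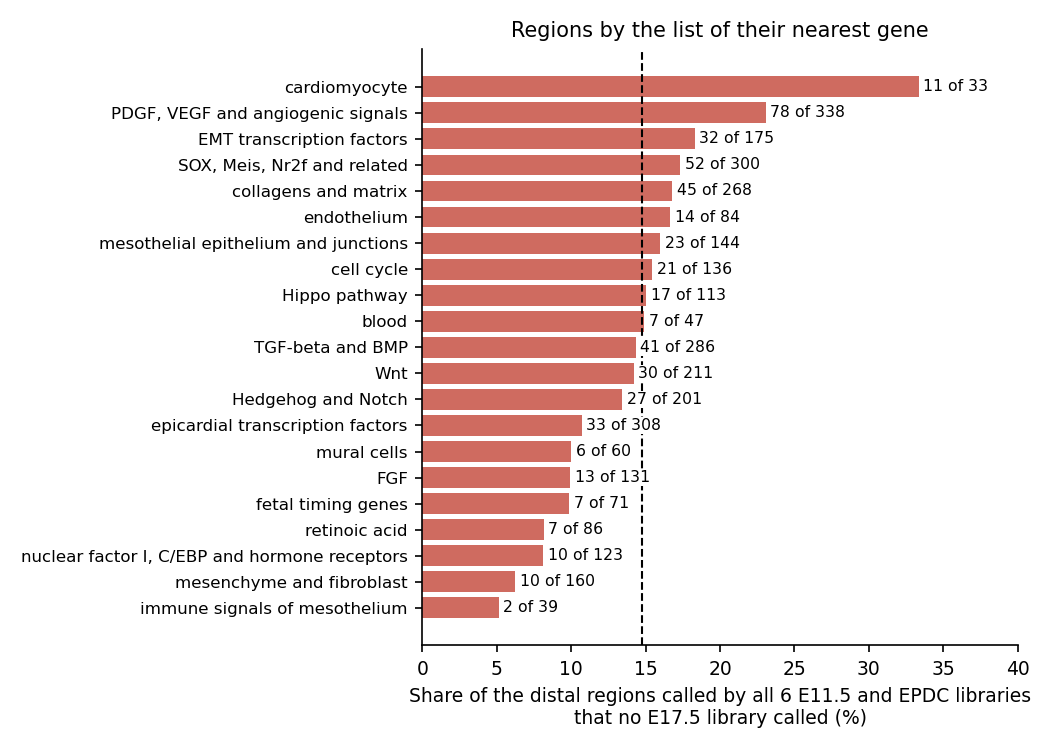
Share (horizontal axis, %) of the distal regions called by all 6 E11.5 and EPDC libraries that no E17.5 library called, by the list of the nearest gene (rows), with the counts printed beside each bar. The dashed line is the 14.7% over all 37078 regions; only lists with at least 30 regions are drawn. The cardiomyocyte bar (33.3%) and the PDGF, VEGF and angiogenic bar (23.1%) are the longest, and the immune bar (5.13%) the shortest.

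In their sequence, set beside all distal regions, the shared regions carried few sites for AP-1 and many for SOX, MEIS, GATA and the CAGCTG E-box. Motifs were searched as exact letters on both strands in the 200 bp around the summit, and a match describes letters, not a bound factor. The letters TGANTCA of AP-1 were found in 10.7% of the shared regions (586 of 5465; 95% Wilson interval 9.93 to 11.6, counting error only), in 17.8% of all distal regions, in 18.98% of those called in all 9 libraries and in 31.2% of those called only in E17.5. The E-box CAGGTG, the form read by Snail and ZEB factors, was in 4.89% against 9.70%, 8.78% and 18.4% in the same order. The T-box letters AGGTGT, which can share letters with CAGGTG, were in 5.56% against 8.10%, 6.70% and 14.9%. For nuclear factor I (TTGGCA) the shares were 12.3%, 15.7%, 15.2% and 28.8%, and for C/EBP (TTGCNNAA) 7.17%, 8.81%, 8.28% and 13.4%. The motif of CTCF, the insulator protein, was in 0.68% of the shared regions, 2.91% of all distal regions and 4.53% of those called in all 9 libraries. Any of AP-1, CAGGTG or TTGGCA was found in 25.8% of the shared regions and in 61.4% of the regions called only in E17.5.

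The opposite was seen for another group of motifs. The SOX letters ACAATG were in 10.8% of the shared regions, 8.59% of all distal regions, 7.39% of those called in all 9 libraries and 5.18% of those called only in E17.5, and ACAAAG in 18.5%, 14.6%, 13.2% and 10.03%. The MEIS letters TGACAG were in 25.9%, 20.9%, 20.3% and 15.9%. The E-box CAGCTG, a form bound by several tissue-specific helix-loop-helix factors, was in 25.2%, 19.8%, 22.6% and 15.7%, and the GATA letters AGATAA in 21.7%, 18.2%, 17.1% and 16.9%. TEAD letters (GGAATG) differed less, with 20.5%, 21.4%, 23.2% and 22.2%. CAGCTG and TGACAG can share letters, and the fused form TGACAGCTG, looked for after the printed windows had been seen, was in 1.59% of the shared regions (87), 1.66% of those called only in EPDC, 1.29% of those called only in E11.5, 1.15% of those called in all 9 libraries, 1.09% of all distal regions and 0.35% of those called only in E17.5.

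**Figure D5:**
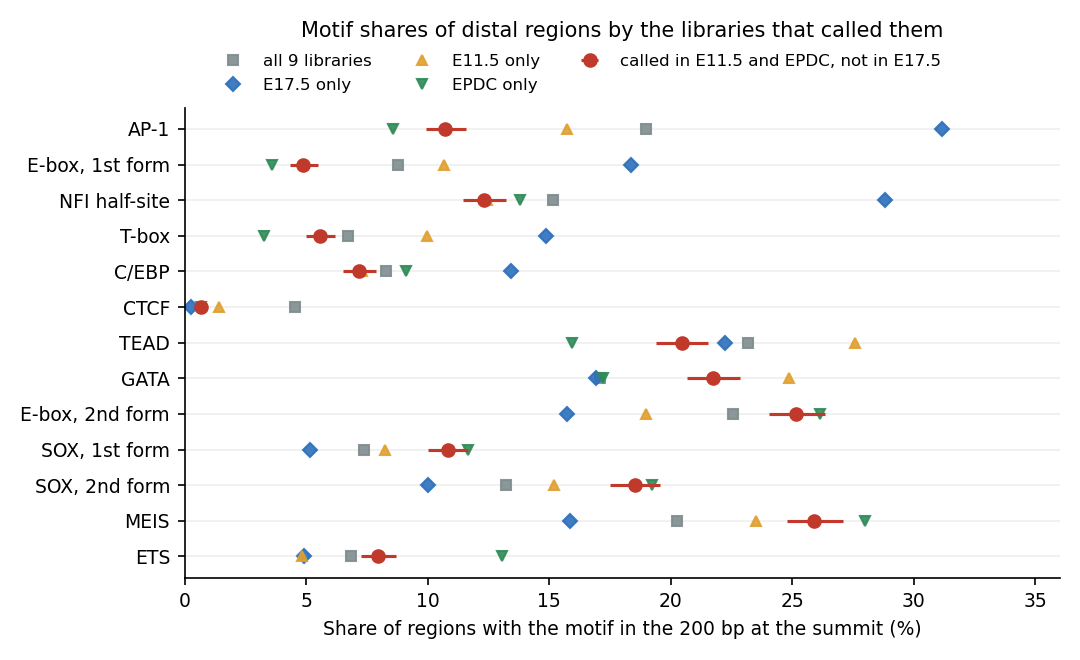
Share of distal regions (horizontal axis, %) with each motif (rows) in the 200 bp at the summit, for the shared E11.5 and EPDC regions (red, with 95% Wilson intervals), the regions called in all 9 libraries, and those called only in E17.5, only in E11.5 or only in EPDC. The 1st and 2nd E-box forms are CAGGTG and CAGCTG, and the 1st and 2nd SOX forms ACAATG and ACAAAG; for AP-1 the red point (10.7%) lies far left of E17.5 only (31.2%), and for MEIS it lies right of it (25.9% against 15.9%).

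Shared regions were intermediate between regions called only in E11.5 and only in EPDC for most of these motifs. AP-1 was in 15.7% of the 5811 regions called only in E11.5 and in 8.57% of the 4211 called only in EPDC, TEAD in 27.6% and 15.9%, and GATA in 24.9% and 17.2%. CAGCTG was in 18.96% and 26.1%, TGACAG in 23.5% and 28.0% and the ETS letters AGGAAGT in 4.82% and 13.0%, with 7.94% in the shared regions. ACAATG was in 8.23% and 11.7%, ACAAAG in 15.2% and 19.2%, CAGGTG in 10.7% and 3.59% and AGGTGT in 9.96% and 3.28%. For each of these motifs, regions called only in E11.5 or only in EPDC went further than the shared regions. The shares were thus not particular to the shared regions. Windows lie at the strongest E11.5 summit where there is one, otherwise at an E17.5 or EPDC summit, so these groups differ in the library that placed the window.

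The motif shares were read beside strength and the number of E17.5 calls, since the shared regions were weaker. Within each of the 3 strength classes, AP-1, the CAGGTG E-box, T-box, nuclear factor I, C/EBP, CTCF, TEAD, KLF (letters CCCCACCC) and HIF (letters ACGTG) were less frequent in the shared regions than in those called in all 9 libraries, and GATA, the CAGCTG E-box, both SOX forms, MEIS, ETS, SMAD (letters CAGACA) and LEF/TCF (letters CTTTGA) more frequent. In the strongest class (258 shared regions, 11645 called in all 9 libraries), AP-1 was in 10.9% and 20.5%, TGACAG in 32.2% and 21.3%, ACAATG in 13.95% and 7.31% and AGATAA in 25.6% and 16.1%. The shares also moved with the number of E17.5 libraries that called a region. With 0, 1, 2 and 3 E17.5 calls, AP-1 was in 10.7%, 14.5%, 14.6% and 18.98%, CAGGTG in 4.89%, 6.62%, 7.69% and 8.78%, TGACAG in 25.9%, 23.5%, 20.4% and 20.3%, and ACAATG in 10.8%, 8.86%, 8.72% and 7.39%. The median GC content was 49% in the shared regions and 51% in those called in all 9 libraries, and a repeat overlapped 53.8% and 48.6% of the windows. The letters CG were fewer in the shared regions, with a mean of 2.81 against 4.20 per window and a median of 2 against 3. The part of this difference in the motif shares, such as that of ACGTG, was not tested.

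The regions higher in E11.5 and those higher in EPDC also carried different letters. AP-1 was in 15.0% of the former and 8.60% of the latter, TEAD in 25.6% and 17.3%, and the homeodomain letters TAATTA in 6.89% and 2.76%. The ETS letters were in 5.33% and 9.40%, CAGCTG in 23.1% and 27.9% and TGACAG in 25.2% and 28.9%. For AP-1 the same order held among the regions of the same comparison that E17.5 libraries did call, with 24.8% of 8506 higher in E11.5 and 15.6% of 7218 higher in EPDC. The share of AP-1 was thus lower in the shared regions than in these others on both sides of the comparison.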

How the data were processed

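ATAC-seq peak lists of 9 libraries (10 samples) were analysed, grouped by the sample records. Per the methods, the authors ran the nf-core atacseq pipeline on the mm10 build, removed duplicate, multimapped and blacklisted reads, and called peaks per library with MACS2 2.2.9.1 (version per the submitters' processing notes) at a q-value of 0.01. The deposited lists give each summit's fold enrichment (a ratio to local background) and its −log10 p and −log10 q, as the authors' peak caller computed them, with no normalization between libraries. They hold no read counts, so the window counts and the edgeR test that the authors used could not be repeated.

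Regions, calls and percentiles were computed as described above. The fragments piled up at each summit, and their local background, were obtained as the whole number that satisfies both its fold enrichment and its −log10 p. The background value met most often stands for the genome. Between 91.7% and 99.9% of summits per library gave a whole number within 0.001 of the −log10 p. Read totals were not used here. E11.5 and EPDC were compared with limma 3.58.1 (R 4.3.3, trend) on all 37078 regions, with Benjamini-Hochberg adjustment at 0.05 and no covariate. The p-values measure the spread between pooled samples, which in the EPDC group includes the difference between E12.5 and E13.5. The replicate numbers did not pair the samples (correlations of deviations from −0.02 to 0.02). Simulated data with known answers were used to check the steps: 97.0% of 972 planted regions and 100% of 720 planted motifs were found, and limma found 40% of 100 differences of 1 and 99% of 100 differences of 2, with 13 of 36878 unchanged regions called.

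Genes and TSSs came from GENCODE M21, and sequence from GRCm38, the same build as mm10. Promoters were read within 500 bp of a TSS. Named regions were the 12 of highest mean percentile, the highest at the 10 genes nearest to most regions, the 5 largest differences each way and up to 3 per gene list, each named by its nearest coding TSS; others are singled out in the text. A named gene of these lists is not reported here. The regions, gene lists and motifs were chosen with earlier results of these data known. Sex chromosomes are outside the rule. Alternatives were a stricter threshold, equal numbers of intervals, other distances, windows and scores, each library left out and the replicate block. Python 3.11.15, numpy 2.4.6, pandas 2.3.3, scipy 1.17.1, pysam 0.24.0 and matplotlib 3.10.9 were used.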

Additional observations from a re-analysis of the deposited data

How the results depend on the processing

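The count of 5465 regions became 4822 with a −log10 q of at least 5, 4900 beyond 3 kb from a TSS, 5386 with windows of 100 bp on either side of the strongest summit, and 3192 (11.3% of 28296) with the 73606 strongest intervals of every list; 2465 of the 5465 overlapped one of these. Leaving out 1 library gave 5617 to 6794, the highest without E17.5 replicate 2. The mean over libraries of the median percentile was 39.8 at E11.5 and 40.05 in EPDC, and 16.8 and 28.4 with equal numbers of intervals. Ranking by fold enrichment gave 43.5 at E11.5 and 42.7 in EPDC, which turned the order of the groups. The depth-normalized score gave 1410 shared regions higher in E11.5 and 1043 in EPDC, in place of 769 and 1628. Leave-one-out fits gave 552 to 1058 (10.1% to 19.4% of the shared regions, against 20.1% to 28.3% of all tested) and 1323 to 1768 (24.2% to 32.4%, against 19.5% to 27.1%). The replicate number as a block gave 521 and 1252 (9.53% and 22.9%, against 19.1% and 19.2%), but the numbers did not pair the samples. Fold enrichment gave 875 and 1338 (16.0% and 24.5%, against 18.7% and 19.1%). Regions of at most 1 kb, with 4391 shared regions tested, gave 570 and 1296 (12.98% and 29.5%, against 23.9% and 22.7%). Fragments over background, a scale chosen after seeing the data and with 5454 tested, gave 691 and 1768 (12.7% and 32.4%, against 25.4% and 24.4%). Motif differences kept their direction in all 51 alternatives and moved by more than their counting error in 8. With coding starts within 100 kb, the shares of 6 of 21 gene lists fell beyond their counting error: mesothelial epithelium (9.47%), EMT factors (11.6%), TGF-beta and BMP (10.3%), SOX and related genes (11.2%), cell cycle (6.78%) and cardiomyocyte (10.6%). The other 15 stayed within a counting error that is wide for small lists, among them blood (14.9% to 8.0%), mural genes (10% to 7%) and nuclear factor I, C/EBP and hormone receptors (8.13% to 5.56%). E17.5 depth limits what an absent call can show. The cause of these changes was not tested.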
